A study of Mus musculus with 9 samples.

Results

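The skeletal muscle myosin genes examined here were the 10 rows of the gene count tables with the symbols Myh3, Myh8, Myh7, Myh2, Myh1, Myh4, Myl4, Myl1, Mylpf and Mybph, out of 47729 gene rows. They were chosen by symbol, as the embryonic, perinatal, slow and fast heavy chains of skeletal muscle with their light chains and 1 myosin-binding protein, by a rule that uses no measured value. All 10 symbols were found, each in 1 row. Of the 10, 9 passed the filter on low counts (at least 10 counts, about 0.734 CPM, which are counts scaled to a common library size, in 3 or more libraries) and were tested, and Myh2 was not.

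The counts came from polyadenylated RNA of 9 libraries of cultured skeletal muscle myoblasts from FVB/N mice, with 3 libraries in each of 3 groups. SRC3 were the reserve cells that the submitters named SRCs, from isolation cycle 3, and FRC1 were those named FRCs, from cycle 1. PAR was the parental myoblast population. Both reserve populations had been passaged 2 times under growth conditions between isolation and harvest, so they were not taken at the moment of isolation. The labels do not spell out the abbreviations and do not say whether the 3 replicates of a group were separate cultures, so p-values measure the spread between these libraries, which may be technical.

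Myosin II is the motor of the muscle thick filament. Each molecule has a pair of heavy chains, which carry the ATPase head and the coiled-coil tail, and each head binds an essential and a regulatory light chain. Mammalian skeletal muscle changes its heavy chain during life, with embryonic and perinatal forms in developing and regenerating fibres, a slow form shared with the heart, and several fast forms in adult fibres. In culture, dividing myoblasts use non-muscle myosins, and the sarcomeric genes come on when the cells leave the cell cycle, begin to fuse and become myotubes.

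The heavy chain genes are close relatives, which bears on how 50-base single reads could be assigned among them. Myh3 (GRCm38 chr11:67078300-67102291), Myh2 (chr11:67171027-67197517), Myh1 (chr11:67200052-67224575), Myh4 (chr11:67238029-67260446) and Myh8 (chr11:67277124-67308634) lay in 1 cluster on the + strand, while Myh7 (chr14:54970684-54994626) lay apart on the − strand. A 60-base stretch of coding sequence is shown because it was identical in Myh1, Myh2, Myh4 and Myh8 and differed from them at 1 base in Myh3 and at 4 bases in Myh7. Capitals mark the bases that differ from Myh1, and positions count from the first base of the start codon.
Myh1, coding bases 3631 to 3690, the same letters in Myh2, Myh4 and Myh8: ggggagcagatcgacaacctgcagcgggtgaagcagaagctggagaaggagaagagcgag
Myh3, coding bases 3613 to 3672: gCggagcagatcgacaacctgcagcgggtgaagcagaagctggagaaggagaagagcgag
Myh7, coding bases 3610 to 3669: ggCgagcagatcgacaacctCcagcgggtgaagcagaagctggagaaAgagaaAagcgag
A read from inside this stretch names no single gene among Myh1, Myh2, Myh4 and Myh8. If it misses the 1 base at which Myh3 differs, it does not tell Myh3 from them either. The longest run of identical coding bases was 268 bases, between Myh2 and Myh1, whereas no run that Myh7 shared with another of the 6 heavy chains exceeded 59 bases.

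The light chain genes lay elsewhere, Myl4 at chr11:104550663-104595753 (+ strand), Myl1 at chr1:66924295-66945404 (− strand) and Mylpf at chr7:127208890-127214298 (+ strand), and Mybph lay at chr1:134193448-134201232 (+ strand). Over whole transcripts, the share of 50-base windows found in no other annotated gene on either strand was 95.2% for Myh3, 87.9% for Myh8, 80.0% for Myh7, 75.4% for Myh2, 69.5% for Myh1 and 81.1% for Myh4. Myh1 shared 18.7% of its windows with Myh2, and Myh7 shared 15.6% with Myh6, the atrial heavy chain. Reads aligned to more than 1 place were set aside in the deposited tables, so counts of the fast, perinatal and slow heavy chains understate their RNA more than those of Myh3 do. Among the light chains the share was 100% for Mylpf, 99.96% for Myl4 and 88.3% for Myl1, the rest of which matched the pseudogene Mylf-ps. Mybph overlapped Adora1 on the opposite strand over 43.9% of its windows. Adora1 had 0 counts in SRC3, 3 in FRC1 and 0 in PAR, and whether counting used strand is not given in the sources used here.

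**Figure D1:**
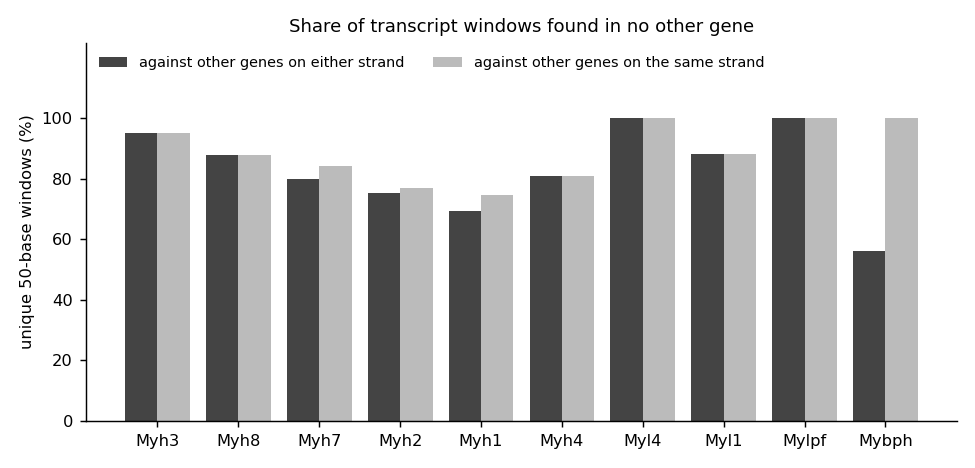
Share of 50-base transcript windows (%, vertical axis) that occurred in no other annotated gene, for each of the 10 genes, compared with other genes on either strand (dark bars) or on the same strand alone (light bars). Myh1 had the lowest share among the heavy chains, 69.5% on either strand, and Mybph reached 100% once its antisense neighbour was set aside.

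Upstream sequence is shown for 4 heavy chains because they shared a run that no other gene carried. The 250 bases before the RefSeq transcription start of Myh8, Myh2, Myh1 and Myh4 (RefSeq, GRCm38.p6) each held the 14 bases TTCTAATTATATCC, in capitals below, and these were the 4 windows that held it among 27025 gene starts searched on both strands.
Myh8, chr11:67276874-67277123, + strand: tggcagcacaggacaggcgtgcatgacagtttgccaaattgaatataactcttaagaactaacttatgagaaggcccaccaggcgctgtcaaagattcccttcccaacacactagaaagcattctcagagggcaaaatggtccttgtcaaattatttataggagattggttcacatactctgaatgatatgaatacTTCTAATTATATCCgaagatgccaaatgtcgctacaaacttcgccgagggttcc
Myh2, chr11:67170777-67171026, + strand: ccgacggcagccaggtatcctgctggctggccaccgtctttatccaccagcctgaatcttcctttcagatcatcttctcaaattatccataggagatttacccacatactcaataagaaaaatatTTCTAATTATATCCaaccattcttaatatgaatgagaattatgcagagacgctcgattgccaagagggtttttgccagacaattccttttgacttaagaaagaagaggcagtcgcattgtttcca
Myh1, chr11:67199852-67200101, + strand: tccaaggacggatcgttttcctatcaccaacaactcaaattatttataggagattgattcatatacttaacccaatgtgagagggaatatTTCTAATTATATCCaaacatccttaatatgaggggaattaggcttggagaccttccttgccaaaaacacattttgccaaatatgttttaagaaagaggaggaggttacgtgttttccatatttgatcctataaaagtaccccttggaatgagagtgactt
Myh4, chr11:67237562-67237811, + strand: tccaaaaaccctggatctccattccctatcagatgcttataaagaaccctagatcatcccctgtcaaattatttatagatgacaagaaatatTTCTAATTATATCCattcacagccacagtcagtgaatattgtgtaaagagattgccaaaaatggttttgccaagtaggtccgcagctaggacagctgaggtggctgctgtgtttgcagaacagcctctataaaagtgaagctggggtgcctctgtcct
The run was absent from the windows of Myh3 and Myh7. Among the 10 genes, the general E-box CANNTG, the core to which MyoD and its relatives bind, occurred in 7 windows (66.0% of all windows), CAGCTG, one form of it, in 4 (12.8% of all), the TATA element TATAAA in 6 (12.97% of all), and the TEAD-type motif CATTCC in 5 (12.6% of all), searched on both strands. A MEF2 consensus was found in Myh8, Myh1 and Myh4 (3.01% of all windows) and a CArG box in Myh4 (1.40% of all). These are matches of letters in a short window and show no binding.

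Between 13012996 and 14336279 reads per library were assigned to genes, so 3 counts, the upper limit that a count of 0 allows, corresponded to between 0.209 and 0.231 CPM. That limit was taken from unscaled library sizes, while the levels below were scaled by TMM normalization. All myosin members were low against such depth: together they took 711 counts in SRC3, 4211 in FRC1 and 238 in PAR. The 6 markers of myoblasts all had reads in every group, with a summed level of 1796 to 1940 CPM in SRC3, 2652 to 2657 CPM in FRC1 and 2692 to 2778 CPM in PAR. The 9 markers of differentiated muscle found in the tables, among them Acta1 and Myog, summed to 13.3, 23.3 and 10.9 CPM in the 3 SRC3 libraries, 88.2, 103.0 and 85.9 CPM in the FRC1 libraries, and 9.86, 7.96 and 10.0 CPM in the PAR libraries. Of these markers Ckm, muscle creatine kinase, was at 0 in SRC3. Of 8 tested, 7 were called higher in FRC1 than in PAR and 0 lower. In SRC3 against PAR 4 were higher, 1 lower and 3 not called. Tnnt1, Tnnc2 and Car3 reached the low-count filter in all libraries of FRC1 alone, which favours a higher call in FRC1. Atp2a1 went against the sums, at 1.90 CPM in SRC3, 2.65 CPM in FRC1 and 3.71 CPM in PAR. Tnnt3 stood at 1.59 CPM in SRC3, 7.81 CPM in FRC1 and 1.68 CPM in PAR. These marker sums moved with the myosin levels given below, and their part in each result was not tested. In such bulk RNA, fewer cells of a type and less RNA per cell cannot be told apart. SRC3 replicate 2 stood apart from the other SRC3 libraries in nearly every member, and results that rest on it are given with and without it.

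The embryonic and perinatal heavy chains come first in muscle development. Myh3, the embryonic heavy chain, stood at 2.71, 5.39 and 1.90 CPM in SRC3 replicates 1, 2 and 3, at 19.1, 25.2 and 23.9 CPM in the FRC1 replicates, and at 1.61, 1.38 and 1.21 CPM in the PAR replicates. The 3 groups did not overlap, with FRC1 highest and PAR lowest, and Myh3 was the most counted of the heavy chains in all 3 groups. Myh8, the perinatal heavy chain, stood at 0.0733, 1.70 and 0.380 CPM in SRC3, at 5.68, 7.83 and 6.69 CPM in FRC1, and at 0.0699, 0.153 and 0.142 CPM in PAR. FRC1 was above both other groups, while SRC3 replicate 1, with 1 read, lay among the PAR libraries, and 22 of the 28 SRC3 reads of Myh8 came from replicate 2.

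Myh7 encodes the slow heavy chain, also called beta-cardiac myosin. It gave 10, 24 and 11 reads in SRC3, 120, 179 and 141 reads in FRC1, and 0, 0 and 1 read in PAR. In CPM that was 1.14 ± 0.617 in SRC3, 10.55 ± 1.77 in FRC1 and 0.0237 ± 0.0410 in PAR (SD, n = 3 each). Slow heavy chain reads were thus all but missing in the parental libraries, where the embryonic chain gave 58 reads in all. Its cardiac relative Myh6 had 11 counts in SRC3, 81 in FRC1 and 2 in PAR, so it kept the order of Myh7. The other heart markers on the list did not share one pattern. Nppa and Nkx2-5 had 0 reads in every library, Myl7 had 2 in SRC3 and 0 elsewhere, and Tnni3 had 4 in SRC3, 4 in FRC1 and 6 in PAR. Gata4, a transcription factor, had 197 reads in SRC3, 338 in FRC1 and 327 in PAR, and Nppb, a natriuretic peptide gene, had 52 in SRC3, 9 in FRC1 and 6 in PAR and was called higher in SRC3 than in PAR (log2 fold change 3.10, edgeR adjusted p 0.000405). Nppb passed the low-count filter only through the SRC3 libraries, which favours a call in that direction.

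Of the adult fast heavy chains, Myh1 encodes the IIx form, Myh2 the IIa form and Myh4 the IIb form. Myh1 stood at 0.440, 1.93 and 0.683 CPM in SRC3, at 4.62, 6.15 and 4.56 CPM in FRC1, and at 0.140, 0.306 and 0.0710 CPM in PAR. The groups did not overlap, and PAR gave 7 reads in all. Myh4 had 0, 1 and 0 reads in SRC3, 29, 17 and 17 reads in FRC1, and 0, 1 and 0 reads in PAR. Myh2 was the least counted, with 0, 1 and 1 reads in SRC3, 6, 8 and 8 reads in FRC1, and 1, 0 and 0 reads in PAR. For both genes FRC1 was above the other groups in every library, and SRC3 and PAR were each below the 3 counts per library that a count of 0 allows.

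The light chains and the binding protein followed the same order of group means. Myl4, the essential light chain of embryonic muscle and of the atrium, stood at 1.76, 4.24 and 1.06 CPM in SRC3, at 12.6, 16.4 and 13.5 CPM in FRC1, and at 1.40, 1.30 and 0.710 CPM in PAR. Myl1, the essential light chain of fast fibres, stood at 0.879, 2.39 and 0.532 CPM in SRC3, at 8.48, 8.11 and 7.26 CPM in FRC1, and at 0.140, 0.0765 and 0.0710 CPM in PAR. SRC3 overlapped PAR for Myl4 and did not for Myl1, which had 4 PAR reads in all. Mylpf, the fast regulatory light chain, stood at 4.18, 9.94 and 4.63 CPM in SRC3, at 16.1, 22.7 and 17.7 CPM in FRC1, and at 2.73, 2.22 and 2.56 CPM in PAR. Mybph, myosin-binding protein H, a relative of the thick filament protein MyBP-C, stood at 0.806, 3.93 and 0.835 CPM in SRC3, at 10.98, 14.8 and 12.7 CPM in FRC1, and at 0.350, 0.153 and 0.213 CPM in PAR. Neither gene had overlapping groups, and Mylpf was the member with the most PAR reads, 104.

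**Figure D2:**
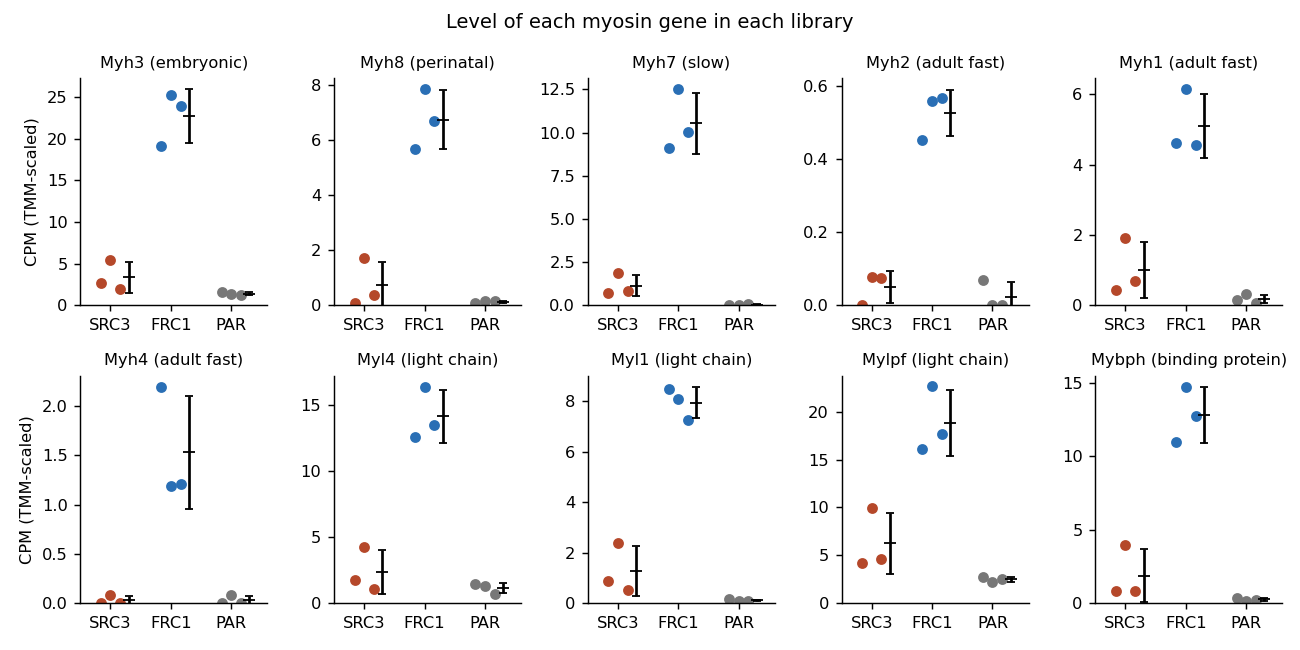
Level of each of the 10 genes (CPM, vertical axis, own scale in each panel) in the 3 libraries of SRC3, FRC1 and PAR; points are libraries and bars the mean ± SD (n = 3). Every FRC1 library was above every SRC3 and PAR library in all 10 panels, and replicate 2 was the highest SRC3 point in all 10, although for Myh2 it had 1 read, as replicate 3 did.

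The first comparison asks what the cycle 1 reserve cells carried relative to the parental population. In FRC1 cells the sarcomeric myosin genes were higher than in PAR cells throughout, from the embryonic to the adult fast chains. Among the tested members with more than 1 PAR read, the log2 fold changes lay between 2.91 for Mylpf and 6.24 for Myl1. The 6 heavy chains summed to 47.2 ± 6.19 CPM in FRC1 and 1.76 ± 0.237 CPM in PAR, and the 3 light chains to 41.0 ± 5.48 CPM in FRC1 and 3.73 ± 0.480 CPM in PAR (SD, n = 3 each). All 9 tested members were called higher at an adjusted p under 0.05 (edgeR quasi-likelihood test, Benjamini-Hochberg over 12540 genes), where 28.3% of all tested genes were called, 13.6% higher and 14.7% lower. Libraries did not overlap for any of the 10, FRC1 being higher, against 21.8% of tested genes higher and 22.4% lower without overlap. Myh8, Myh1, Myh4 and Myl1 passed the low-count filter only through the FRC1 libraries and so had to differ, and the count is given as a description. Myh7 reached the filter in all SRC3 libraries as well, although it did not pass when the filter was rerun without FRC1.

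Myh3 differed between FRC1 and PAR by a log2 fold change of 4.02 (SE 0.280, edgeR adjusted p 1.26e-06) and Myh8 by 5.70 (SE 0.631, adjusted p 4.28e-05). Myh1 differed by 4.85 (SE 0.479, adjusted p 1.35e-06), and by 5.48 without PAR replicate 2. For Myh7 the PAR side was a single read, and the count ratio of FRC1 to PAR was 439 with an exact 95% interval of 78.4 to 17380 (edgeR adjusted p 8.14e-10), an interval that covers counting error alone. Without PAR replicate 3, the library with that read, Myh7 was at least 96.2-fold higher in FRC1, taking 3 counts over the other two PAR libraries as the floor. The count ratio of Myh4 was 62.8 (interval 10.9 to 2521, edgeR adjusted p 1.44e-05), and without PAR replicate 2 it was at least 14.5-fold higher. Myh2, which was not tested, had a count ratio of 21.95 (interval 3.55 to 906). Among the light chains the log2 fold changes were 3.64 for Myl4 (SE 0.366), 6.24 for Myl1 (SE 0.474) and 2.91 for Mylpf (SE 0.316), and Mybph differed by 5.68 (SE 0.602), with adjusted p between 1.06e-07 for Myl1 and 0.000152 for Mybph. By size, Myl1 ranked 4, Myh8 6 and Mybph 7 among the 12540 log2 fold changes from the highest down, and Mylpf, the last of the 9, ranked 43. Myl1 and Myh8 passed the low-count filter only through FRC1, which favours a high rank, so the ranks are a description.

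**Figure D3:**
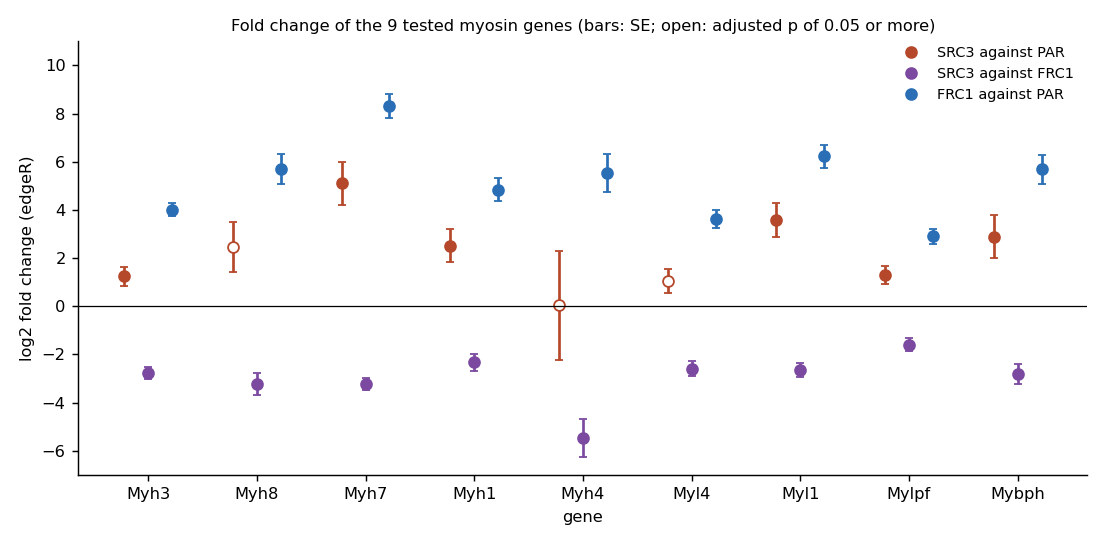
Log2 fold change ± SE (vertical axis) of the 9 tested genes in SRC3 against PAR, FRC1 against PAR and SRC3 against FRC1; filled points passed an adjusted p of 0.05 and open points did not. All 9 lay above 0 in FRC1 against PAR and below 0 in SRC3 against FRC1; the fitted values of Myh7 and Myh4 against PAR, and of Myh4 between SRC3 and FRC1, rest on 1 read in 1 of the groups.

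The second comparison sets the cycle 3 reserve cells against the parental cells, and here the differences were smaller and less even. Myh3, Myh7, Myh1, Myl1, Mylpf and Mybph were called higher in SRC3, 6 of the 9 tested members with 0 called lower, where 37.9% of tested genes were called, 17.8% higher and 20.2% lower. Myh8, Myl4 and Myh4 were not called. Of the called members, Myh1 and Myl1 passed the low-count filter only through the FRC1 libraries. Myh7 and Mybph reached it in all FRC1 and SRC3 libraries but not in PAR, which favours a higher call in SRC3. Without FRC1 in the filter, Myh7, Myh1 and Myl1 did not pass, and Myh3, Mylpf and Mybph were the members called. The count of called members is therefore a description. The 6 heavy chains summed to 6.28 ± 4.10 CPM in SRC3 and 1.76 ± 0.237 CPM in PAR, and the 3 light chains to 9.87 ± 5.81 CPM in SRC3 and 3.73 ± 0.480 CPM in PAR (SD, n = 3 each). SRC3 replicate 2 lay at 11.02 CPM of heavy chains and 16.6 CPM of light chains, against 3.96 and 3.87 CPM of heavy chains and 6.81 and 6.23 CPM of light chains in replicates 1 and 3. The 6 called members also did not overlap between SRC3 and PAR, as was the case for 23.7% of tested genes in the higher direction and 25.4% in the lower.

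Between SRC3 and PAR, Myh3 differed by a log2 fold change of 1.24 (SE 0.384, edgeR adjusted p 0.0234), Mylpf by 1.31 (SE 0.373, adjusted p 0.0206) and Mybph by 2.88 (SE 0.894, adjusted p 0.0297). Myh1 differed by 2.51 (SE 0.677, adjusted p 0.00619) and Myl1 by 3.58 (SE 0.716, adjusted p 0.000549). The count ratio of Myh7 was 46.9 (exact 95% interval 8.00 to 1892, edgeR adjusted p 4.87e-05), and without PAR replicate 3 it was at least 10.4-fold higher in SRC3. Myh8 had a log2 fold change of 2.46 (SE 1.04, adjusted p 0.0743) and Myl4 of 1.04 (SE 0.502, adjusted p 0.131), both with overlapping libraries. Myh4 had 1 read in SRC3 and 1 in PAR, and Myh2 had 2 in SRC3 and 1 in PAR, so no fold can be given for either.

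The size of these SRC3 differences depended on SRC3 replicate 2. It gave between 52.2% and 78.6% of the SRC3 reads of the 8 members with more than 2 such reads, and its CPM was 2.26 times the mean of the other two SRC3 libraries for Mylpf, 2.34 times for Myh3, 4.79 times for Mybph and 7.49 times for Myh8. Its sum of differentiated muscle markers was 23.3 CPM, against 13.3 and 10.9 CPM in replicates 1 and 3. Without it Myh3 was no longer called (log2 fold change 0.73, edgeR adjusted p 0.0542), while Mylpf (0.82), Mybph (1.74), Myh1 (1.68), Myl1 (2.77) and Myh7 (4.58) still were. Leaving out PAR replicate 1, 2 or 3 each left Myh7, Myh1 and Myl1 called and ended the calls of Myh3, Mylpf and Mybph, whose log2 fold changes stayed between 1.15 and 1.36, between 1.24 and 1.38 and between 2.67 and 3.26 (adjusted p between 0.0523 and 0.0966). Without PAR replicate 2 the log2 fold change of Myh1 was 3.15. Myh8 and Myl4, not called with all libraries, changed with the SRC3 library left out. Myh8 differed by 0.85 without SRC3 replicate 2 (edgeR adjusted p 0.478) and by 3.01, a call, without replicate 1 (adjusted p 0.00393). Myl4 differed by 0.33 without SRC3 replicate 2 (adjusted p 0.515) and by 1.39, a call, without replicate 3 (adjusted p 0.0101).

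The third comparison places the 2 reserve populations side by side, and all 9 tested members were lower in SRC3 than in FRC1, where 33.5% of tested genes were called, 15.5% higher and 18% lower. All 10 members were without overlap, SRC3 being lower, against 22.9% of tested genes lower and 19.9% higher without overlap. Among the tested members with more than 1 SRC3 read, log2 fold changes lay between -3.24 for Myh8 and -1.60 for Mylpf. Myh8, Myh1, Myh4 and Myl1 passed the low-count filter only through the FRC1 libraries and so had to be lower in SRC3. Myh7 reached the filter in all SRC3 libraries too, so the filter did not force its direction. The counts of members are a description here too. Myh3 differed by a log2 fold change of -2.78 (SE 0.240, edgeR adjusted p 2.52e-06), Myh8 by -3.24 (SE 0.450, adjusted p 0.00014), Myh7 by -3.21 (SE 0.248, adjusted p 4.3e-09) and Myh1 by -2.34 (SE 0.336, adjusted p 3.29e-05). Myh4, with 1 read in SRC3 and 63 in FRC1, had a count ratio of 0.0166 (exact 95% interval 0.000413 to 0.0958), and Myh2, with 2 reads in SRC3 and 22 in FRC1, one of 0.0949 (0.0108 to 0.386). The light chains Myl4, Myl1 and Mylpf differed by -2.60 (SE 0.321), -2.65 (SE 0.289) and -1.60 (SE 0.271), and Mybph by -2.80 (SE 0.410), with adjusted p of at most 0.00141.

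Without SRC3 replicate 2 the gaps to FRC1 were wider, at -4.85 for Myh8, -3.16 for Myh1, -3.31 for Myl4, -3.46 for Myl1 and -3.95 for Mybph, and Myh4, then without a read in SRC3, was at least 13.7-fold lower. This comparison shares the FRC1 libraries with that of FRC1 against PAR, whose PAR libraries also serve SRC3 against PAR, so the 3 sets of values are not independent.

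The make-up of the heavy chain pool addresses whether the isoforms moved in proportion. Of the 248 heavy chain reads in SRC3, 132 were embryonic, 28 perinatal, 45 slow and 43 adult fast, and of the 1968 in FRC1, 949 were embryonic, 281 perinatal, 440 slow and 298 adult fast. PAR had 73 heavy chain reads, of which 58 were embryonic, 5 perinatal, 1 slow and 9 adult fast. The embryonic share averaged 55.5 ± 11.3% in SRC3, 48.2 ± 2.41% in FRC1 and 79.4 ± 6.73% in PAR, and the slow share 19.0 ± 2.42% in SRC3, 22.3 ± 1.03% in FRC1 and 1.59 ± 2.75% in PAR (SD, n = 3 each). The perinatal share averaged 9.01 ± 6.80% in SRC3, 14.2 ± 0.414% in FRC1 and 7.08 ± 3.02% in PAR, and the adult fast share 16.5 ± 4.71% in SRC3, 15.3 ± 2.15% in FRC1 and 12.0 ± 7.65% in PAR. Between SRC3 and FRC1 the shares differed by 7.33 points (embryonic), -5.22 points (perinatal), -3.33 points (slow) and 1.22 points (adult fast), with two-sided exact permutation p of 0.4, 0.4, 0.2 and 0.8, where 3 libraries against 3 cannot go below 0.1.

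The PAR shares rest on the fewest reads. The 1 slow read of 73 in PAR gave a pooled slow share of 1.37% (exact 95% Clopper-Pearson interval 0.0347 to 7.40%), against 18.1% (13.6 to 23.5%) in SRC3 and 22.4% (20.5 to 24.3%) in FRC1. The pooled embryonic share was 53.2% (46.8 to 59.6%) in SRC3, 48.2% (46.0 to 50.5%) in FRC1 and 79.5% (68.4 to 88.0%) in PAR. The intervals cover counting error alone. Each SRC3 share rests on 51 to 143 heavy chain reads per library. Without SRC3 replicate 1 the SRC3 to FRC1 difference was 0.82 points for the embryonic share and -1.64 points for the perinatal one, and 3.93 points for the adult fast share, which turned to -0.32 points without SRC3 replicate 3.

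**Figure D4:**
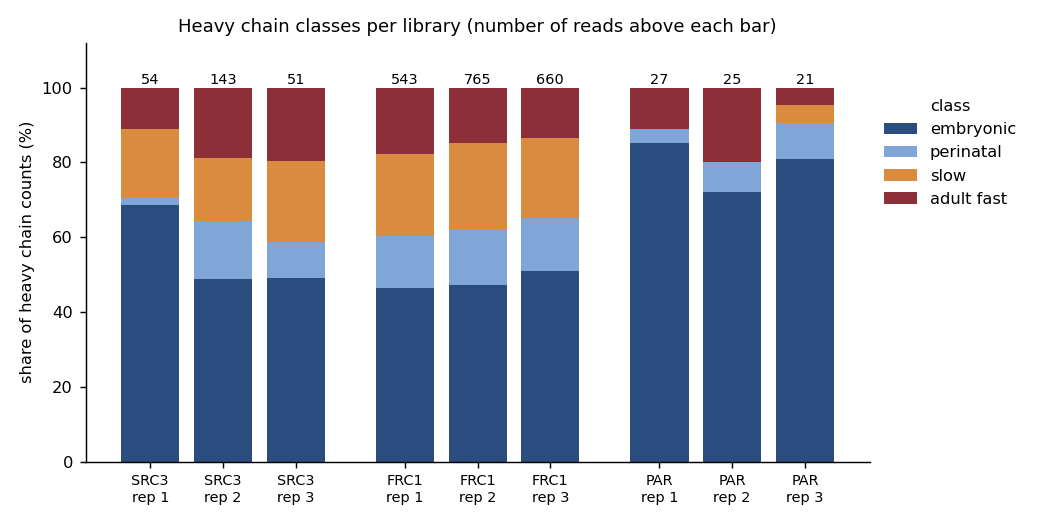
Share of skeletal heavy chain counts (%, vertical axis, from 0 to 100) by isoform class in each of the 9 libraries, with the number of heavy chain reads above each bar. The embryonic class was the widest in all 9 bars, and the slow class was at 0 in PAR replicates 1 and 2.

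Among all 10 members, Mylpf took 36.7 ± 5.43% of the counts in SRC3, 18.6 ± 0.934% in FRC1 and 43.9 ± 6.01% in PAR. The SRC3 and FRC1 libraries did not overlap for this share, nor for those of Myh8 (3.16 ± 2.39% in SRC3, 6.65 ± 0.251% in FRC1), Myh7 (6.61 ± 0.919% in SRC3, 10.4 ± 0.369% in FRC1) and Myh4, which were lower in SRC3. For each of these 4 the exact permutation p was 0.1, the smallest the design allows, and the Benjamini-Hochberg adjusted value over the 10 members was 0.25. Per kilobase of exon, Mylpf was highest in every group, at 5.89 CPM per kb in SRC3, 17.8 in FRC1 and 2.36 in PAR. In FRC1 it was followed by Mybph (5.51 CPM per kb), Myl1 (3.83), Myh3 (3.76), Myl4 (3.06), Myh7 (1.22), Myh1 (0.804), Myh8 (0.572), Myh4 (0.255) and Myh2 (0.0739), in which order Myl1 and Myh3, and Myh3 and Myl4, overlapped over libraries. In SRC3 every pair of neighbours in the order below Mylpf overlapped. In PAR, Mylpf, Myl4 (0.245 CPM per kb) and Myh3 (0.231) led, with Mybph at 0.102 and Myl1 at 0.0462. The length used was the union of all annotated exons of a gene. It was 4637 bases for Myl4 and 11772 for Myh8, whose longest coding transcripts have 943 and 6149 bases. Both genes would have higher values per coding transcript, so these orders hold for the union length alone.

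The other striated myosin and thick filament genes give the setting. Of 18 listed genes, 9 were tested. In FRC1 against PAR, 5 were higher, 1 lower and 3 not called, with a median log2 fold change of 1.63, against 0.00342 over all tested genes. Mylk4, a myosin light chain kinase, differed by 3.39 (edgeR adjusted p 5.12e-06) and Myom3, an M-band protein, by 3.58 (adjusted p 7.44e-05), while Myh6 and Myh7b, a further slow-type heavy chain, had count ratios of 40.4 (interval 10.8 to 339) and 56.9 (9.80 to 2285). Myh6, Myh7b and Myom3 reached the low-count filter in FRC1 libraries alone, and Mylk4 in FRC1 and SRC3 libraries alone. The filter thus favoured the direction of their calls, and the counts and medians of this list are a description. In SRC3 against PAR, 3 were higher, 1 lower and 5 not called, with a median of 1.00, against 0.00568 over all tested genes. The called genes were Myl6b (1.00), Mylk2 (0.88) and Mylk4 (2.74), higher in SRC3, and the M-band gene Myom2 (-2.36), lower in SRC3. Mylk2, a skeletal light chain kinase, was not called without PAR replicate 2 (0.61), SRC3 replicate 1 (0.81) or SRC3 replicate 3 (0.74). In SRC3 against FRC1, 2 were higher, 5 lower and 2 not called, with a median of -1.03, against -0.000283 over all tested genes. Myh6 (-2.78), Myh7b (-3.65), Myom2 (-1.72) and Myom3 (-2.56) were lower in SRC3, and without SRC3 replicate 2 Myh6 differed by -4.01 and Myom3 by -3.18.

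Genes for folding and turnover of myosin did not move as a block. Of 9 listed, 7 were tested, of which 2 were higher and 3 lower in FRC1 against PAR (median -0.01), 2 higher and 3 lower in SRC3 against PAR (median 0.08), and 4 higher and 1 lower in SRC3 against FRC1 (median 0.35). Smyd1, a lysine methyltransferase that in zebrafish is needed for thick filament assembly, stood at 6.43 ± 0.976 CPM in SRC3, 3.80 ± 0.459 CPM in FRC1 and 1.98 ± 0.106 CPM in PAR (SD, n = 3 each), and was called higher in SRC3 than in either other group and in FRC1 than in PAR. Trim54, a sarcomeric ubiquitin ligase of the MuRF family, stood at 62.9 ± 1.08 CPM in SRC3, 9.78 ± 1.36 CPM in FRC1 and 14.8 ± 0.850 CPM in PAR, so that it was higher in SRC3 than in FRC1 (log2 fold change 2.68, edgeR adjusted p 3.68e-15), the opposite order to the myosin genes. Its relative Trim55 was lower in FRC1 than in PAR (-0.72) and higher in SRC3 than in FRC1 (0.96). Fbxo32, the ubiquitin ligase subunit atrogin-1, was lower than PAR in both reserve groups (-0.88 in SRC3, -1.23 in FRC1), and Unc45a, a myosin chaperone, was lower in SRC3 than in PAR (-0.19), a call that ended without PAR replicate 2, PAR replicate 3 or SRC3 replicate 1 (each about -0.16 or -0.17).

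Of the 9 non-muscle and smooth muscle myosin genes, 7 were tested, with 0 higher and 2 lower in FRC1 against PAR (median -0.04), 0 higher and 5 lower in SRC3 against PAR (median -0.37), and 1 higher and 5 lower in SRC3 against FRC1 (median -0.22). Myh10, the heavy chain of non-muscle myosin IIB, had 9, 10 and 7 reads in SRC3, 1498, 1453 and 1554 in FRC1, and 1889, 1769 and 1937 in PAR. Its log2 fold change was -7.67 in SRC3 against PAR, -7.36 in SRC3 against FRC1 and -0.31 in FRC1 against PAR (edgeR adjusted p 4.67e-21, 1.66e-20 and 0.000217). Myh9, the IIA heavy chain, was at 1194 ± 175 CPM in SRC3, 1507 ± 52.1 CPM in FRC1 and 1547 ± 52.6 CPM in PAR, and so was counted far above any skeletal heavy chain in all 3 groups; SRC3 was lower than PAR by a log2 fold change of -0.37 and than FRC1 by -0.34. The light chains Myl9 (-1.38) and Myl6 (-0.16) were lower in SRC3 than in PAR, Myl9 (-1.23) also in SRC3 than in FRC1, and the kinase gene Mylk was lower in FRC1 than in PAR (-1.30) and higher in SRC3 than in FRC1 (0.81). The call of Myh9 between SRC3 and FRC1 ended without SRC3 replicate 3 (-0.29). Those of Myl6 in SRC3 against PAR and of Mylk in SRC3 against FRC1 each ended on leaving out any of several libraries, at -0.09 for Myl6 without SRC3 replicate 3 and 0.70 for Mylk without FRC1 replicate 1.

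Of 21 regulators of myosin genes, 16 were tested, with 3 higher and 6 lower in FRC1 against PAR (median -0.09), 5 higher and 5 lower in SRC3 against PAR (median -0.03), and 6 higher and 6 lower in SRC3 against FRC1 (median 0.02). Myog, the myogenic factor of early differentiation, had 20, 29 and 15 reads in SRC3, 103, 154 and 117 in FRC1, and 11, 5 and 8 in PAR. It was higher in FRC1 than in PAR (3.94, edgeR adjusted p 7.18e-09), higher in SRC3 than in PAR (1.46, adjusted p 0.00366) and lower in SRC3 than in FRC1 (-2.47, adjusted p 2.88e-08). Mef2c, a MADS-box factor of muscle genes, stood at 3.94 ± 1.53 CPM in SRC3, 6.63 ± 0.432 CPM in FRC1 and 0.500 ± 0.240 CPM in PAR (SD, n = 3 each), with SRC3 and FRC1 each higher than PAR and SRC3 lower than FRC1 (-0.75, adjusted p 0.0111, and -0.50, not called, without SRC3 replicate 1). Myod1, the factor that marks committed myoblasts, stood at 539 ± 18.8 CPM in SRC3, 770 ± 15.8 CPM in FRC1 and 776 ± 15.1 CPM in PAR, and was called lower in SRC3 than in either other group (-0.53 against PAR, -0.51 against FRC1) but not called between FRC1 and PAR (-0.01, adjusted p 0.882). Mef2a (-0.62) and Eya1 (-0.71) were lower in FRC1 than in PAR, Mef2a was higher in SRC3 than in FRC1 (0.62), and Nfatc1, which in fibres responds to slow nerve activity, was higher in SRC3 than in PAR (0.46). Myf6, the factor of mature fibres, had 2 reads in SRC3, 2 in FRC1 and 0 in PAR and was not tested. Myog and Mef2c reached the low-count filter in all SRC3 and FRC1 libraries but not in all PAR libraries, which favours a higher call against PAR.

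The genes whose pattern was most like that of the myosin genes were found by correlating log2 CPM with the mean log2 CPM of the 9 tested members over the 9 libraries. They were Acta1, skeletal alpha-actin (Pearson's r 0.997), Ablim3, an actin-binding LIM protein (0.989), Mb, myoglobin (0.988), Myog (0.985) and Tnnc1, slow troponin C (0.985). These values are a description over 9 libraries that share their group means and depth. Acta1 averaged 5.04 ± 3.47 CPM in SRC3, 34.4 ± 3.29 CPM in FRC1 and 1.33 ± 0.293 CPM in PAR (SD, n = 3 each), and its highest SRC3 library was also replicate 2, with 117 reads, against 47 and 35 in replicates 1 and 3.

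**Figure D5:**
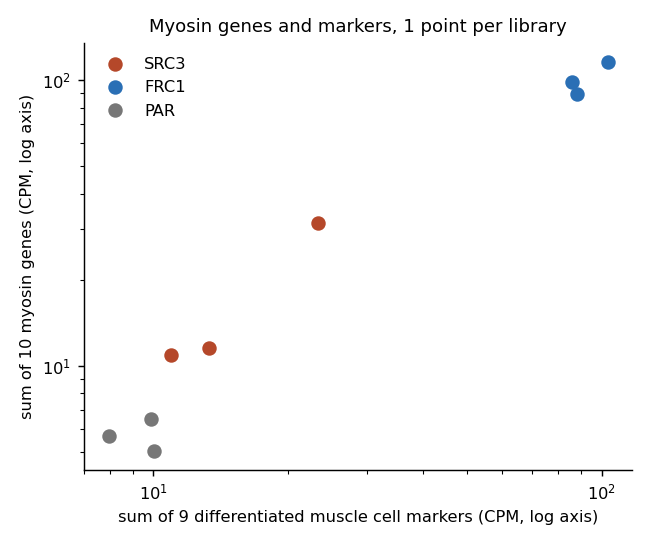
Summed level of the 10 myosin members (CPM, vertical axis, log scale) against the summed level of 9 differentiated muscle markers (CPM, horizontal axis, log scale), 1 point per library, coloured by group. The FRC1 libraries lay apart at 85.9 CPM or more of markers and 89.3 CPM or more of members, and among the other libraries SRC3 replicate 2, at 23.3 and 31.5 CPM, was the highest on both axes.

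Summed over the 10 members, the level was 11.6, 31.5 and 10.9 CPM in the SRC3 libraries, 89.3, 115 and 98.3 CPM in the FRC1 libraries, and 6.50, 5.66 and 5.04 CPM in the PAR libraries. The 3 groups did not overlap in either sum, although in markers SRC3 replicate 3 (10.9 CPM) was close to PAR replicate 3 (10.0 CPM). Markers of the heart summed to 6.30 to 7.01 CPM in SRC3, 9.54 to 10.98 CPM in FRC1 and 7.88 to 8.74 CPM in PAR, and those of smooth muscle and pericytes to 4.25 to 14.9 CPM in SRC3, 174 to 233 CPM in FRC1 and 63.0 to 73.6 CPM in PAR. Nearly all of the smooth muscle sum was Acta2, smooth muscle actin, with 340 reads in SRC3, 8308 in FRC1 and 2775 in PAR, while Myh11 had 6 reads in SRC3, 0 in FRC1 and 0 in PAR, Cnn1 had 0, 1 and 3 in those groups, Pdgfrb 2, 0 and 1, and Rgs5 7, 14 and 5. Markers of fibroblasts, adipocytes, endothelium, immune cells and glia each summed to at most 7.73 CPM in any library.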

How the data were processed

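Gene counts of 9 libraries (3 each of SRC3, FRC1 and PAR) were analysed as deposited. Libraries were made with a stranded kit for polyadenylated RNA from total RNA of RIN 10 and sequenced as single 50-base reads, per the labels. HTSeq 0.9.1 and HISAT2 2.1.0 appear, with DESeq2, in the processing notes of the submitters, as does the build GRCm38, and the strand setting of the counting is not given in the sources used here. The deposited values are whole-number counts per gene, with 5 summary lines that were left out of library sizes. Reads without a feature amounted to 5.92% to 7.92%, and ambiguous reads to 1.18% to 1.21%, of the gene counts and these reads together. Alignments that were not unique, left out of both, numbered between 15795855 and 19695230 per library.

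The counts were filtered with edgeR's filterByExpr (minimum count 10, total 15), scaled by TMM (factors within 1.2% of 1) and fitted over all 9 libraries with group as the 1 term, by edgeR 4.0.16 quasi-likelihood tests in R 4.3.3 (residual df 6, common biological coefficient of variation 0.0535). Benjamini-Hochberg adjusted p-values ran over 12540 genes. CPM were computed from TMM-scaled library sizes, with a prior count of 2 on the log2 scale for correlations alone. Fold changes were those of the quasi-likelihood fit, to which this prior was not applied. They carry the default shrinkage of that fit, so that Myh7 in FRC1 against PAR was 318-fold by the fit and 439-fold by counts. Each SE was the size of the unshrunk log2 coefficient divided by the square root of the F statistic. Ratios that rest on 1 to 3 counts carry exact 95% intervals that cover counting error only, as do shares. The pipeline was tested on simulated counts, in comparisons against PAR alone and with that same coefficient of variation for every gene. The simulation did not include the wider spread of the members over the SRC3 libraries, so it cannot speak for them.

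The members and gene lists were chosen with earlier results of these data known. All 10 members were named. From each list up to 4 called genes with the largest absolute log2 fold change and at least 1 CPM in the higher group were named, plus Myod1, Myog and Myf6. The 5 most alike genes were those with the highest Pearson correlation among symbols with a mean of at least 1 CPM. Alternatives were RLE size factors, library sizes alone, no filter, DESeq2 1.42.0, limma voom 3.58.1, the 2 groups alone, a replicate block, each library left out, and class shares per length.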

Additional observations from a re-analysis of the deposited data

How the results depend on the processing

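In FRC1 against PAR and in SRC3 against FRC1, each tested member kept its direction and its call under all alternatives run, and 9 members were called, or 10 without a filter on low counts. In SRC3 against PAR the number of members called was less stable. It was 6 as reported, 3 with the 2 groups alone, where 4 members passed the filter, 8 with no filter and 8 with the replicate block, and it ranged between 3 and 7 when 1 library was left out, with 3 reached on leaving out PAR replicate 1, 2 or 3. The 3 called with the 2 groups alone were Myh3, Mylpf and Mybph. Myh7, Myh1 and Myl1, the 3 called on leaving out a PAR library, were not tested there because they did not pass the filter. The cause of these changes in number was not tested. All genes called in FRC1 against PAR ranged between 2327 (without FRC1 replicate 3) and 3987 on leaving out a library. Directions reversed for Myh4 in SRC3 against PAR, which rests on 1 read in each group (1.91 without PAR replicate 2, -0.42 without PAR replicate 1, -0.41 without PAR replicate 3, -1.87 without SRC3 replicate 2), and for Myod1 in FRC1 against PAR (-0.028 without PAR replicate 2, 0.0024 without PAR replicate 3, 0.0017 without FRC1 replicate 3). With limma voom the log2 fold change of Myh7 was 7.66 in FRC1 against PAR and 4.37 in SRC3 against PAR, that of Myh4 4.84 in FRC1 against PAR, and that of Myh8 -3.99 in SRC3 against FRC1. Class share differences between SRC3 and FRC1 moved by less than 1 SD of the libraries per kilobase, per unique 50-base window (an alternative chosen after seeing the data) and on leaving out a library. That SD is wide, and on leaving out a library they ranged between 0.82 and 10.6 points (embryonic), -8.40 and -1.64 (perinatal), -4.64 and -2.24 (slow) and -0.32 and 3.93 (adult fast), the last changing sign without SRC3 replicate 3.

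Replicate numbers recur in the 3 groups. Deviations of same-numbered libraries correlated between -0.07 and 0.12, and those of differently numbered libraries between -0.09 and 0.12. The labels do not say whether same-numbered libraries were handled together, and these correlations cannot settle it. With the replicate block, 3560 genes and 9 members were called in FRC1 against PAR, 4798 genes and 8 members in SRC3 against PAR, and 4221 genes and 9 members in SRC3 against FRC1. The 2 members added in SRC3 against PAR were Myh8 (2.43, adjusted p 0.031) and Myl4 (1.01, adjusted p 0.0408), which were also added with no filter.

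Low counts limit the members most in PAR, where Myh7, Myh2 and Myh4 had 1 read each over 3 libraries, and in SRC3, where Myh2 and Myh4 had 2 and 1.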
